A study of Mus musculus with 8 samples.

Results

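Ccl3, Ccl4 and Ccl5 are CC chemokines and Ccr1 is a CC chemokine receptor that binds Ccl3 and Ccl5. These 4 genes were taken by name, out of 17921 genes measured in single cells of mouse lung grafts, and were followed through the 11 cell types that the deposited table of cells names. The grafts came from orthotopic left lung transplantation (LTx), a mouse model in which mismatched grafts progress to bronchiolitis obliterans syndrome (BOS), the chronic rejection of the small airways. In the B6→B6 group a C57BL/6 (B6) lung was placed into a B6 recipient (n = 5 mice, the non-rejecting controls). In the HLA→B6 group the donor lung came from a B6 strain of The Jackson Laboratory that carries the human HLA-A2 transgene Tg(HLA-A2.1)1Enge, and the recipient was again B6 (n = 3 mice, BOS). All mice were male, none received immunosuppression, and each graft was taken 1 month after LTx, while BOS was still progressing. Donor and recipient share the B6 background, and the tables do not say which cells of a graft were the donor's and which the recipient's. Each graft was 1 mouse and 1 library, so the replicates are separate mice. 10000 cells were loaded per graft on a 10x Genomics 3′-end kit, and expression is given as unique molecular identifiers (UMIs), each standing for 1 captured transcript.

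CC chemokines are small secreted proteins named for a pair of adjacent cysteines near the start of the mature protein. They bind G protein-coupled receptors on leukocytes and guide these cells along a gradient. Ccl3 and Ccl4 (macrophage inflammatory proteins 1-alpha and 1-beta) are made on activation by T cells, NK cells, macrophages, mast cells and basophils. Ccl5 (RANTES) is a product of NK cells and of effector and memory CD8+ T cells. Ccr1 is found on neutrophils, monocytes and macrophages. In transplanted organs these ligands are known as signals that draw T cells and monocytes into the graft.

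The 3 ligand genes lie in 1 cluster of chemokine genes on chromosome 11 (build GRCm38, annotation GENCODE vM21, each span covering all exons, introns and UTRs). Ccl5 spans chr11:83525778-83530518 on the minus strand and Ccl3 chr11:83647844-83649355 on the same strand, each with 3 exons and with 117325 bases between them. Ccr1 is on chromosome 9 (chr9:123962124-123968692, minus strand, 2 exons). The coding sequences of Ccl3 and Ccl5 are printed here, 5′ to 3′ and without the stop codon, because these close relatives led in different cell types, with the codons of the adjacent cysteines in capitals.
Ccl3: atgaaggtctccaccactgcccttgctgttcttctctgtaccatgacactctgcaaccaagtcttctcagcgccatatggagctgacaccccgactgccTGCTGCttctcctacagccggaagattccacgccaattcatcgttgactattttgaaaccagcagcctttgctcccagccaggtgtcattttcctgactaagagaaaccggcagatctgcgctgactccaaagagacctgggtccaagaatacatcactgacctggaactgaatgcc
Ccl5: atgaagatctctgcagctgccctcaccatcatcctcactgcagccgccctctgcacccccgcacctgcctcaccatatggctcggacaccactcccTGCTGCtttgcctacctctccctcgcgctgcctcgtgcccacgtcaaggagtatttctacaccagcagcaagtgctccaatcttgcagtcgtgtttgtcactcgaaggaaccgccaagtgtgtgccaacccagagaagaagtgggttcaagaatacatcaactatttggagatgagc
The cysteine pair begins at codon 34 in Ccl3 and at codon 33 in Ccl5, and the pair of sequences shared 61.6% of their aligned bases. In the last 400 bases of the transcript, which a 3′-end kit reads, 0 of the 371 stretches of 30 bases in any of the 4 genes occurred in another gene.

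The 8 libraries held 868 to 6544 cells, with a median of 1356 to 1948 UMIs per cell. In all, 140582 UMIs of Ccl5, 7335 of Ccl4, 4268 of Ccl3 and 1914 of Ccr1 were counted in 20778 cells. Cells labelled T cell, natural killer (NK) cell, monocyte, B cell and alveolar macrophage (AM) carry their names as given. Cells labelled leukocyte held neutrophil genes, with S100a8 in 99.8% and Csf3r in 72.2% of them, and all 7 neutrophil markers examined were highest there. Cells labelled mast cell mixed markers of mast cells and of basophils: Fcer1a was found in 82.4%, Cpa3 in 69.4% and Mcpt8 in 62.4% of these 85 cells, and the mast cell protease Cma1 in 1.18%. Below, mast cell is only the name of this label, in which mast cells and basophils were not told apart. In cells labelled myeloid cell, 5 of 7 dendritic cell markers were highest. Of these cells 25.3% also held a UMI of Cd3d, Cd3e or Cd3g, which encode the CD3 subunits of the T cell receptor complex. Some libraries stood apart. A T cell cluster of 954 cells, 64.9% of the T cells of B6→B6 mouse 4, came from that mouse alone. Cell barcodes were shared between libraries in 1014 cells, most often among B6→B6 mice 1 to 3 and HLA→B6 mouse 2, and 156 of the 160 barcodes that B6→B6 mouse 2 and HLA→B6 mouse 2 had in common carried the same cell type in both. Several comparisons between the groups are also given without that T cell cluster or without the cells that share a barcode. Comparisons within a graft were not repeated without the cells of shared barcodes.

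Cells labelled mast cell led for Ccl3 and Ccl4, NK cells for Ccl5 and cells labelled leukocyte for Ccr1. The levels in this paragraph are CPM, the UMIs of a gene per 1000000 UMIs of all cells of a type in a mouse, as mean ± SD over mice of both groups. They describe the cell types and carry no test, and since 1 transcript gives 1 end whatever its length, levels of different genes are compared without a correction for length. Ccl3 was highest in mast cells, at 10024 ± 5010 CPM (n = 8), followed by NK cells at 463 ± 240, leukocytes at 239 ± 284 (n = 7) and monocytes at 104 ± 44.5. Ccl4 had the same first 3 types, with 10663 ± 7521 CPM in mast cells, 1158 ± 329 in NK cells and 600.2 ± 397 in leukocytes, and then T cells at 164 ± 225. For both genes mast cells exceeded NK cells in 8 of 8 mice and NK cells exceeded leukocytes in 6 of 7, while lower neighbours such as T cells and myeloid cells (5 of 8 mice for either gene) did not differ beyond their spread. Ccl5 followed another order, with 30495 ± 2943 CPM in NK cells, 7267 ± 4239 in T cells and 1982 ± 2079 in myeloid cells, and each of these steps held in every mouse. Below them, leukocytes at 287 ± 334 and structural cells at 207 ± 221 CPM overlapped, and B cells (66.8 ± 127) and monocytes (32.1 ± 72.3) lay lower still. Ccl5 made up 3.05% of all UMIs of NK cells, and Ccl3 and Ccl4 made up 1.00% and 1.07% of those of mast cells. Ccr1 was highest in leukocytes at 570.4 ± 128 CPM and in mast cells at 404 ± 211, then in AMs at 66.2 ± 10.5, monocytes at 47.2 ± 52.6 and myeloid cells at 45.0 ± 34.4. The first 3 steps of that order held in 6 of 7, 7 of 8 and 7 of 8 mice, and monocytes exceeded myeloid cells in 3 of 8. T cells (1.19 CPM) and NK cells (1.99), which lead for Ccl5, and structural cells (1.67) were near 0 for Ccr1.

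**Figure D1:**
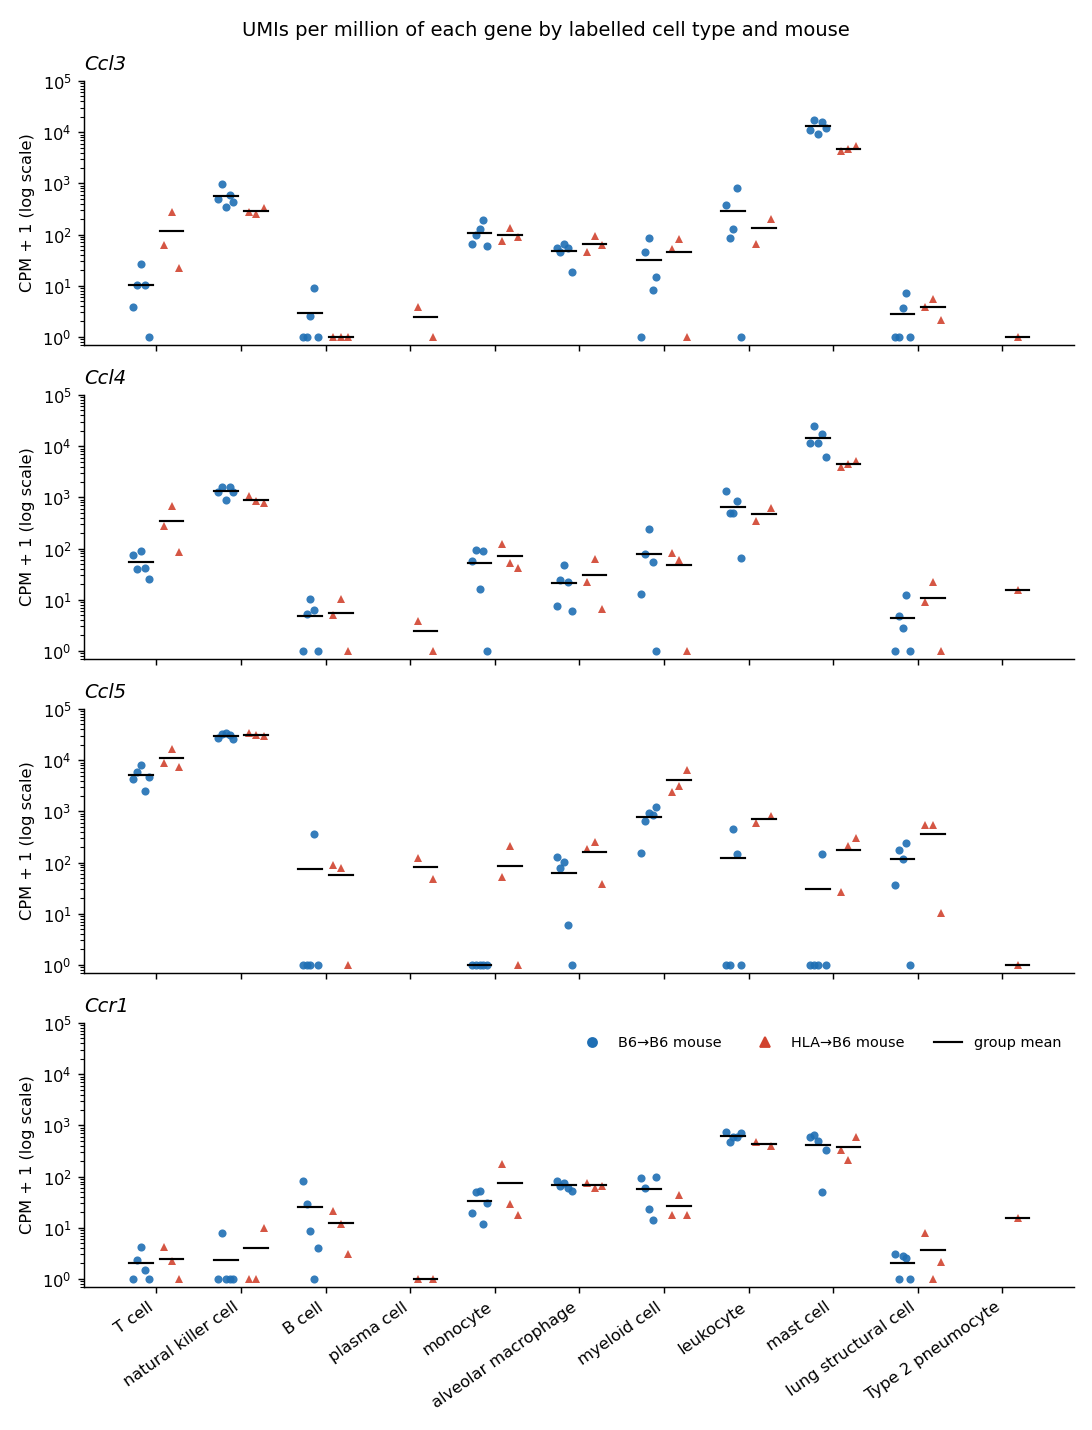
Level of Ccl3, Ccl4, Ccl5 and Ccr1 in each cell type, as CPM + 1 on a log axis. Each point is 1 mouse (blue circles B6→B6, red triangles HLA→B6) and each bar is a group mean. Cells labelled mast cell lead for Ccl3 and Ccl4, NK cells for Ccl5 and cells labelled leukocyte for Ccr1.

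Detection per cell followed the levels. With each cell thinned to 1000 UMIs, Ccl5 was found in 99.8% of NK cells and 35.4 ± 15.1% of T cells (mean over 8 mice). Ccl4 was found in 35.9 ± 9.95% of NK cells and 5.27% of T cells, and Ccl3 in 20.9 ± 6.12% and 2.07%. At full depth (medians of 1484 UMIs in NK cells and 1648 in T cells) the shares were 99.9% and 34.5% for Ccl5, 44.6% and 6.89% for Ccl4, and 28.0% and 2.94% for Ccl3. Of the mast cells that reached 1000 UMIs, 90.7% held Ccl3 and 85.7% held Ccl4 (the 3 mice with at least 10 mast cells, full-depth shares 92.0% and 91.5%). Ccr1 was found in 37.3 ± 7.21% of leukocytes in the 4 mice with enough deep cells, and in 6.09 ± 0.88% of AMs (full depth 35.1% over 7 mice and 15.9%). Leukocytes were shallow, with a median of 678.5 UMIs, and 1145 of their 1390 cells fell below 1000. As a background, the cluster of red blood cells, whose cells should lack all 4 genes (median 5067.5 UMIs), held Ccl3 in 1.13%, Ccl4 in 0.446%, Ccl5 in 1.47% and Ccr1 in 0.157% of cells at 1000 UMIs. T cells were below that background for Ccr1 (0.110%) and, over mice of both groups, little above it for Ccl3. By mouse, Ccl3 was found in 0.450, 0.994, 1.13, 0.899 and 0% of the T cells of B6→B6 mice 1 to 5. In HLA→B6 mice 1 to 3 it was 3.06, 7.63 and 2.41%. By this share, Ccl3 in control T cells cannot be told from the background.

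The few cells labelled mast cell held the greatest share of Ccl3, and T and NK cells together held nearly all Ccl5. Over all grafts pooled, mast cells were 0.409% of cells and held 32.0% of the Ccl3 UMIs, whereas T cells held 19.0%, NK cells 16.3%, AMs 14.3% and monocytes 11.2%. For Ccl4 the shares were 32.8% in T cells, 25.5% in NK cells and 20.3% in mast cells, and for Ccl5 56.4% in T cells, 36.0% in NK cells and 3.88% in myeloid cells. The pooled Ccl4 share of T cells owed much to HLA→B6 mouse 2, which held 1607 of their 2403 UMIs. As a mean over the 8 mice, NK cells held 34.97 ± 16.4% of Ccl4, mast cells 28.7 ± 16.8% and T cells 19.6 ± 23.9%, and NK and T cells held 48.0 ± 17.3% and 46.4 ± 15.7% of Ccl5. The UMIs of Ccr1, pooled, were spread over AMs (30.8%), leukocytes (29.4%) and monocytes (27.2%). Over mice the means were 41.5 ± 24.4% in AMs, 24.6 ± 18.2% in leukocytes and 13.1 ± 14.9% in monocytes, and HLA→B6 mouse 1 held 446 of the 521 UMIs in monocytes. Mice differed widely in these shares. Mast cells held 53.1 ± 13.3% of Ccl3 in B6→B6 grafts and 23.0 ± 19.5% in HLA→B6 grafts, and T cells held 1.94 ± 2.20% and 24.9 ± 25.0%. For Ccl4 the share in T cells was 6.68 ± 3.14% and 41.1 ± 29.5%. A share moves with the number of cells as well as with the level per cell, and both are set apart in the levels per type that follow.

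**Figure D2:**
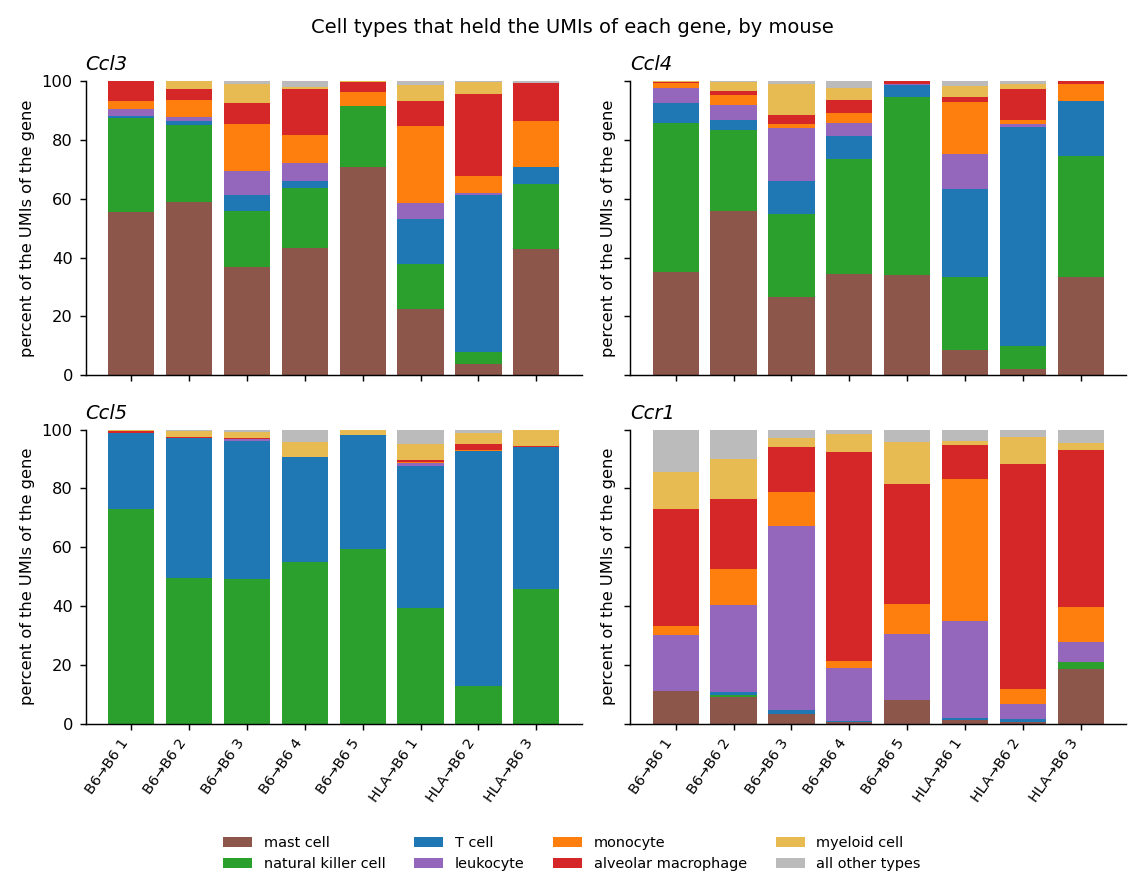
Percent of each gene's UMIs that lay in each cell type, as stacked bars with 1 bar per mouse and 1 panel per gene. NK and T cells fill most of each Ccl5 bar, mast cells a large part of the Ccl3 bars of B6→B6 mice, and AMs, leukocytes and monocytes most of the Ccr1 bars.

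On average, Ccl3 was found more often in NK and T cells that also held Ccl4. Of 85 mast cells, 71 held both, 6 Ccl3 alone, 6 Ccl4 alone and 2 neither. Of 1011 NK cells, 161 held both, 97 Ccl3 alone and 259 Ccl4 alone. Within a graft, NK cells with a Ccl4 UMI had a higher Ccl3 level than NK cells without one, by 2.22 ± 0.94 on the log2(CPM + 1) scale (8 of 8 mice, exact sign permutation over mice, two-sided p = 0.0078125, the smallest it can give). Ccl3 was found in 38.6 ± 10.2% of the NK cells with Ccl4 and in 19.3 ± 6.35% of those without. By this share HLA→B6 mouse 3 went the other way, with 24.0% and 25.8%. In T cells the same difference was 4.69 ± 1.92 in the 6 mice with enough cells (6 of 6 higher, exact sign permutation p = 0.03125, the smallest for 6 mice), with Ccl3 in 22.4 ± 14.7% and 1.49 ± 0.79% of cells. Among T cells with at least 1000 UMIs it was 3.74 (exact sign permutation p = 0.09375), and B6→B6 mouse 2 went the other way at -2.99. Monocytes and leukocytes moved the same way in 3 of 3 mice each, by 1.74 ± 0.50 and 1.76 ± 0.36, and 3 mice cannot give an exact p under 0.25. The difference was 0.79 ± 1.22 in AMs and 1.49 ± 3.06 in structural cells (2 of 3 mice higher in each), and 6.50 ± 4.44 in myeloid cells (2 of 2 mice). Cells with and without a Ccl4 UMI were not matched in depth beyond the scaling to CPM.

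Between the groups, 26 of the 44 pairs of member and cell type had enough cells and counts to be tested, in 9 cell types. UMIs were summed per mouse and type and compared across mice with edgeR's quasi-likelihood test, with p-values adjusted by Benjamini-Hochberg over all genes tested in that type. No pair passed an adjusted p of 0.05 by edgeR, 10 had an unadjusted p under 0.05 (9.42% of all genes tested in these types), and DESeq2 on the same sums called 3 pairs and gave no adjusted p for 2. Fold changes are log2 of HLA→B6 over B6→B6, with the standard error (SE). Group means are also compared by a two-sided exact permutation over the 56 splits of the mice, which cannot give a p below 0.0357 and is not adjusted.

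T cells of HLA→B6 grafts had higher mean levels of all 3 ligands than T cells of B6→B6 grafts (10861 against 5111 CPM for Ccl5, 349 against 52.9 for Ccl4 and 117 against 9.27 for Ccl3). Ccl3 in T cells was 2.85, 9.16, 24.9, 9.40 and 0 CPM in B6→B6 mice 1 to 5 and 60.7, 269.8 and 21.2 CPM in HLA→B6 mice 1 to 3. HLA→B6 mouse 3 lay inside the control range and mouse 2 far above it. The log2 fold change was 3.43 (SE 0.70, edgeR adjusted p = 0.111, exact permutation p = 0.0714). Ccl4 was 74.2, 38.0, 87.8, 40.6 and 24.2 CPM in B6→B6 and 280.0, 683 and 82.7 CPM in HLA→B6 mice, again with an overlap through HLA→B6 mouse 3. Its log2 fold change was 2.69 (SE 0.50, edgeR adjusted p = 0.0789, exact permutation p = 0.0714), and DESeq2 called it at 2.67 (adjusted p = 0.0300). In the background of 7164 genes tested in T cells, edgeR called 0.0698%. Without HLA→B6 mouse 2, the fold changes were 1.97 for Ccl3 and 1.78 for Ccl4 (edgeR adjusted p = 1.00 and 0.616). Without the cells that share a barcode they were 3.48 and 2.93 (edgeR adjusted p = 0.0974 and 0.0610). Without the filter on low counts both genes passed (edgeR adjusted p = 0.000699 and 0.000169). B6→B6 mouse 4 carried the T cell cluster of its own. With the other T cell cluster alone, both genes passed the threshold, Ccl3 at 3.33 (SE 0.66, edgeR adjusted p = 0.0434) and Ccl4 at 2.60 (SE 0.45, edgeR adjusted p = 0.0196), where edgeR called 0.422% of 7106 genes. That choice and the split by Cd8 that follows were made after the data were seen.

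Cd8-positive T cells, those with a UMI of Cd8a or Cd8b1 and none of Cd4, showed Ccl3 and Ccl4 higher in every HLA→B6 mouse than in any control. Cd8 marks cytotoxic T cells and Cd4 helper and regulatory T cells. In Cd8-positive T cells Ccl3 was 0, 18.3, 15.4, 9.52 and 0 CPM in B6→B6 mice (0, 5, 6, 10 and 0 UMIs) and 103, 405 and 33.8 CPM in HLA→B6 mice (75, 570 and 9 UMIs). These UMIs came from 0, 4, 4, 10 and 0 cells in the controls and from 30, 110 and 6 cells in HLA→B6 mice, and the counts of 0 allow up to 21.3 and 17.4 CPM (3 counts, counting error only). The groups did not overlap (8.63 ± 8.48 and 181 ± 198 CPM, exact permutation p = 0.0357, the smallest possible). Ccl3 rose by a log2 fold change of 4.12 (SE 0.67, edgeR adjusted p = 0.0115). Only the HLA→B6 mice had enough Ccl3 for the filter on low counts. Ccl3 thus entered the test through the group in which it was high, and its adjusted p-values with that filter are no independent support. Ccl4 was 63.9, 76.7, 64.0, 47.6 and 34.8 CPM in B6→B6 and 444, 1073 and 128 CPM in HLA→B6 mice, with no overlap (57.4 ± 16.3 and 548 ± 481 CPM, exact permutation p = 0.0357). It rose by 3.18 (SE 0.46, edgeR adjusted p = 0.00505), and DESeq2 gave adjusted p-values of 0.0136 for Ccl3 and 1.32e-07 for Ccl4. Of 4155 genes tested in Cd8-positive T cells, edgeR called 0.77%, 0.626% in the direction of higher in HLA→B6, and the groups did not overlap with HLA→B6 above in 5.05%. Without HLA→B6 mouse 2, Ccl4 was higher by 2.30 (edgeR adjusted p = 0.0372), and Ccl3 had too few counts to be tested. Ccl3 also had too few counts without HLA→B6 mouse 1 and without B6→B6 mouse 3 or 4, and ranged from 3.98 to 4.51 without any of the other 4 mice (edgeR adjusted p = 0.00123 to 0.0312). Without the cells that share a barcode the rise was as large, at 4.34 for Ccl3 and 3.44 for Ccl4 (edgeR adjusted p = 0.00739 and 0.00261). Among the 4 libraries linked by shared barcodes, Ccl4 was 63.9 to 76.7 CPM in the 3 controls and 1073 CPM in HLA→B6 mouse 2, and among the others 34.8 and 47.6 CPM against 128 and 444 CPM. With these sets of libraries as a block, Ccl3 rose by 4.09 and Ccl4 by 3.26 (edgeR adjusted p = 4.04e-05 and 2.96e-05). Cd8-positive cells were 37.8 ± 9.16% of T cells in B6→B6 and 46.7 ± 9.93% in HLA→B6 grafts (exact permutation p = 0.286).

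Cd8-positive T cells also had higher mean Ccl4 and Ccl5 than Cd4-positive T cells of the same grafts. On the log2(CPM + 1) scale the difference was 3.92 ± 1.94 for Ccl4 and 3.22 ± 1.51 for Ccl5, each higher in 8 of 8 mice (exact sign permutation p = 0.0078125). For Ccl3 it was 2.33 ± 2.10, higher in 6 of 8 mice and 0 in both kinds of cell in the other 2 (exact sign permutation p = 0.03125). In B6→B6 mice 2 to 4 and HLA→B6 mouse 3 the Cd4-positive cells had no Ccl3 UMI. The levels that this allows there (19.4, 28.1, 21.7 and 52.2 CPM) lay above those of the Cd8-positive cells (18.3, 15.4, 9.52 and 33.8 CPM). Only HLA→B6 mice 1 and 2 had Ccl3 in both kinds of cell, with differences of 0.58 and 1.22. For Ccl4 the allowed level also lay above in B6→B6 mice 1 and 5 (68.3 and 63.2 against 63.9 and 34.8 CPM). Cd4-positive cells were few in the controls, 18 to 78 cells, and Ccl3 was at 0 CPM in all 5, which allows up to 19.4 to 68.3 CPM. HLA→B6 mice had 68.6, 173 and 0 CPM of Ccl3 in 201, 116 and 28 Cd4-positive cells, with the UMIs in 10, 3 and 0 of them. Ccl4 in Cd4-positive cells was 0, 6.48, 9.36, 7.24 and 0 CPM in B6→B6 and 178, 112 and 0 CPM in HLA→B6 mice. In T cells with neither marker, Ccl4 was 62.0 ± 50.7 and 104 ± 71.5 CPM (exact permutation p = 0.429). A small number of cells carried these totals. The 10 T cells with most Ccl3 held 36.7% of the Ccl3 UMIs of all T cells, and the 10 with most Ccl4 held 22.4%. Markers of NK cells, summed over 6 genes, were 137 to 446 CPM in the T cells of B6→B6 mice and 215 to 309 CPM in those of HLA→B6 mice, so that the latter range lay within the former.

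**Figure D3:**
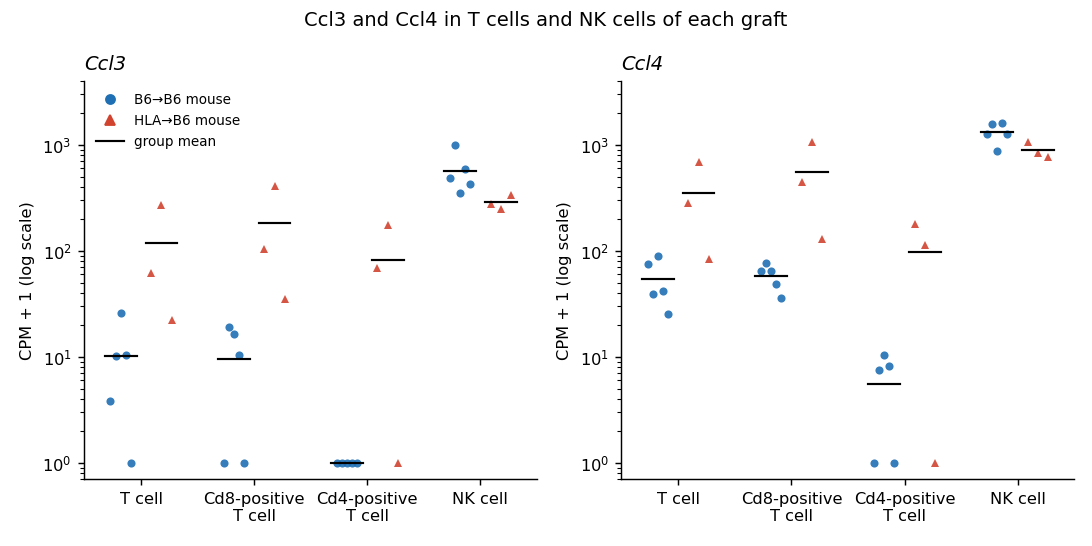
Ccl3 and Ccl4 (CPM + 1, log axis) in T cells, Cd8-positive and Cd4-positive T cells and NK cells, 1 point per mouse (blue circles B6→B6, red triangles HLA→B6) with black lines at the group means. The groups separate with HLA→B6 above in Cd8-positive T cells, and for Ccl3 in NK cells with HLA→B6 below.

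In NK cells the means of Ccl3 and Ccl4 were lower in HLA→B6 grafts. Ccl3 was 489, 988, 349, 591 and 425 CPM in B6→B6 and 278, 249 and 332 CPM in HLA→B6 mice, and every HLA→B6 value lay below every control (568 ± 251 and 286 ± 42.3 CPM, exact permutation p = 0.0357). The log2 fold change of -0.98 (SE 0.27, unadjusted p = 0.00200) did not pass edgeR's threshold (adjusted p = 0.998), where 0% of 2987 genes were called and 1.47% did not overlap with HLA→B6 below. The control with 988 CPM owed much of it to 1 cell with 96 of that mouse's 142 Ccl3 UMIs, and without that mouse the fold change was -0.72. Without the filter on low counts Ccl3 passed (-0.95, edgeR adjusted p = 0.00431). Without the cells that share a barcode, Ccl3 was 494, 1019, 307, 598 and 425 CPM in B6→B6 and 280.0, 257 and 332 CPM in HLA→B6 mice. HLA→B6 mouse 3 then lay above B6→B6 mouse 3 and the groups overlapped (exact permutation p = 0.0714, log2 fold change -0.96, edgeR adjusted p = 1.00). Ccl4 was 1269.8, 1586, 872, 1606 and 1265 CPM in B6→B6 and 1071, 834 and 763 CPM in HLA→B6 mice, which overlap (1319.8 ± 299.6 and 889 ± 162 CPM, log2 fold change -0.54, SE 0.20, edgeR adjusted p = 0.998). Ccl5 was alike in range, 26418 to 33777 CPM in B6→B6 and 29164 to 33886 CPM in HLA→B6 mice, and the interval of its log2 fold change ran from -0.16 to 0.31. Immediate early genes, which respond to activation and to tissue dissociation, had a summed level of 3103 ± 1007 CPM in the NK cells of B6→B6 and 1841 ± 591 CPM in those of HLA→B6 mice (11 genes, exact permutation p = 0.0714). Their part in the lower Ccl3 was not tested. T cell markers in NK cells were at 203 to 770 CPM and 305 to 315 CPM.

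T cells and NK cells of the same graft were then set against each other, a comparison chosen after the data were seen. For Ccl4 the log2(CPM + 1) level of T cells minus that of NK cells was -4.73 ± 1.00 in B6→B6 and -1.80 ± 1.46 in HLA→B6 mice, a difference of 2.93 (exact permutation p = 0.0357). For Ccl5 it was -2.65 ± 0.57 and -1.61 ± 0.62, a difference of 1.04 (exact permutation p = 0.0357). For Ccl3 the difference was 4.39 (exact permutation p = 0.0714). NK cells thus stayed the higher of the 2 lymphocyte types for Ccl4 and Ccl5 on average in both groups, with a smaller gap in HLA→B6 grafts.

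Cells labelled mast cell had lower mean Ccl3 and Ccl4 in HLA→B6 grafts. Only 3 mice had 10 such cells, so these values rest on a minimum of 5 cells per mouse, set after the data were seen (7, 12, 12, 9 and 6 cells in B6→B6 and 29, 5 and 5 in HLA→B6 mice). Ccl3 was 11122, 17334, 9391, 15764 and 12218 CPM in B6→B6 and 4277, 4738 and 5345 CPM in HLA→B6 mice. The groups did not overlap (13166 ± 3296 and 4787 ± 536 CPM, exact permutation p = 0.0357). The log2 fold change was -1.29 (SE 0.28), which did not pass by edgeR (adjusted p = 0.241) and passed by DESeq2 (-1.28, adjusted p = 0.0170). Ccl4 was 11454, 25153, 11572, 17608 and 6028 CPM in B6→B6 and 3841, 4528 and 5122 CPM in HLA→B6 mice, again without overlap (14363 ± 7292 and 4497 ± 641 CPM, exact permutation p = 0.0357, log2 fold change -1.52, SE 0.45, edgeR adjusted p = 0.810). Without the cells that share a barcode the groups still did not overlap, with Ccl3 at 9391 to 17334 CPM in B6→B6 and 4384 to 5345 CPM in HLA→B6 mice and Ccl4 at 6491 to 25153 and 3657 to 5122 CPM. The log2 fold changes were then -1.27 and -1.54 (edgeR adjusted p = 0.233 and 0.447). Among the 253 genes that could be tested in so few cells, edgeR called 0% and 1.98%, 5 genes, did not overlap with HLA→B6 below.

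Other RNA moved with the mast cells of HLA→B6 mouse 2. Hemoglobin made up 27.0% of the UMIs of its 5 mast cells and 8.86% in B6→B6 mouse 1, and at most 0.0223% elsewhere, and neutrophil markers in the same 5 cells summed to 24429 CPM. In CPM of the UMIs other than hemoglobin, Ccl3 was 13383 ± 3161 in B6→B6 and 5370 ± 1106 in HLA→B6 mice and still did not overlap (exact permutation p = 0.0357). Ccl4 was 14586 ± 7197 and 5055 ± 1181 on that scale and overlapped by 1 mouse (exact permutation p = 0.0714). Every mast cell of the B6→B6 mice held Ccl3, against 22 of 29, 4 of 5 and 5 of 5 in the HLA→B6 mice. Markers of mast cells and basophils spanned 5239 to 12055 CPM in B6→B6 and 5581 to 15219 CPM in HLA→B6 mice. Summed immediate early genes were 19813 ± 6524 and 14912 ± 12395 CPM (exact permutation p = 0.5).

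**Figure D4:**
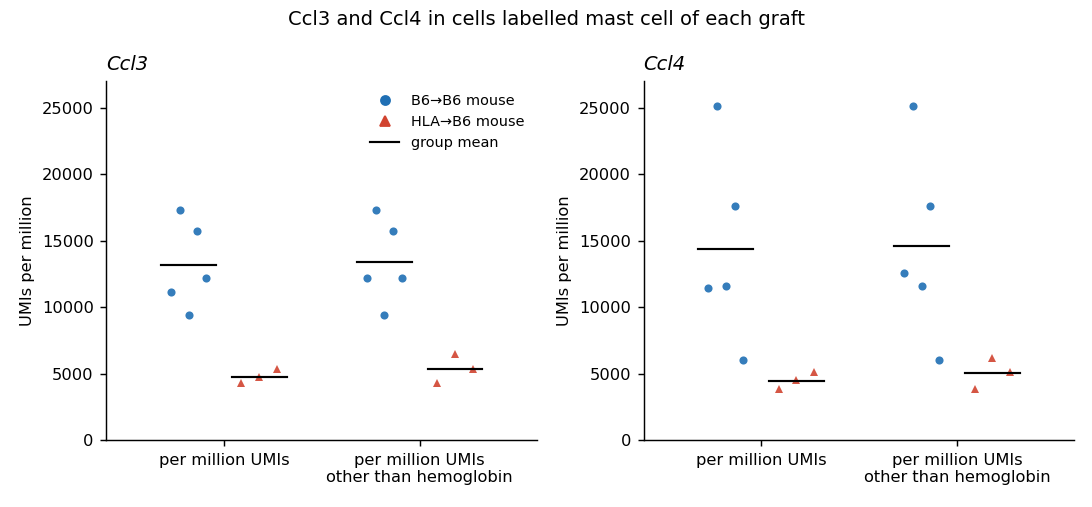
Ccl3 and Ccl4 in cells labelled mast cell, as CPM of all UMIs and as CPM of the UMIs other than hemoglobin (linear axes from 0), 1 point per mouse (blue circles B6→B6, red triangles HLA→B6) with black lines at the group means. Ccl3 separates the groups on both scales, and Ccl4 overlaps by 1 mouse once hemoglobin is left out.

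Ccl5 was higher on average in the T cells and in the myeloid cells of HLA→B6 grafts, and with all cells and the count filter edgeR called it in neither. In T cells Ccl5 was 4255, 5958, 8003, 2543 and 4794 CPM in B6→B6 and 8949, 16387 and 7247 CPM in HLA→B6 mice, with 1 HLA→B6 mouse below the highest control (5111 ± 2032 and 10861 ± 4861 CPM). The log2 fold change was 1.03 (SE 0.32, edgeR adjusted p = 0.350, exact permutation p = 0.0714). In Cd8-positive T cells Ccl5 was 8396, 10588, 11741, 3761 and 6469 CPM in B6→B6 and 16116, 23763 and 10987 CPM in HLA→B6 mice, which overlap, with a log2 fold change of 0.94 (SE 0.32, edgeR adjusted p = 0.285). It passed without the filter on low counts (0.98, edgeR adjusted p = 6.32e-05) and with the linked libraries as a block (1.198, edgeR adjusted p = 0.0154). The lowest control in both was B6→B6 mouse 4, whose own T cell cluster had 46.4 CPM of Ccl5. With that cluster left out, the T cell fold change was 0.87 (SE 0.23, edgeR adjusted p = 0.163). In Cd4-positive T cells Ccl5 stood at 2005 ± 1944 and 1075 ± 320 CPM.

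Cells labelled myeloid cell had 153, 651, 933, 840 and 1217 CPM of Ccl5 in B6→B6 and 2399.6, 3141 and 6524 CPM in HLA→B6 mice. Every HLA→B6 mouse was above every control (759 ± 396 and 4021 ± 2198 CPM, exact permutation p = 0.0357). The log2 fold change of 2.33 (SE 0.46) did not pass by edgeR (adjusted p = 0.110, 0% of 4395 genes called, 3.5% without overlap and HLA→B6 above) and passed by DESeq2 (2.34, adjusted p = 0.00479) and by edgeR without the filter on low counts (2.27, adjusted p = 3.07e-09). Many of these UMIs lay in cells with a UMI of Ccr7, a receptor of migrating dendritic cells and also of naive and central memory T cells. With all mice pooled, cells with Ccr7 were 17.0% of the cells and held 59.7% of the Ccl5 UMIs, at 6798 CPM against 850 CPM in cells without Ccr7. By group they held 32.4% of the Ccl5 UMIs in B6→B6 and 68.3% in HLA→B6 mice. Ccl5 was lower in the cells with Ccr7 in B6→B6 mice 1 and 2 (0 against 163 CPM and 152 against 724 CPM, in 1 and 7 cells) and higher in the other 6 mice. Ccr7-positive cells were 8.48 ± 3.47% of myeloid cells in B6→B6 and 22.3 ± 6.14% in HLA→B6 mice (exact permutation p = 0.0357). Without the Ccr7-positive cells, Ccl5 was 524 ± 245 and 1239 ± 253 CPM (exact permutation p = 0.0357). Cells that also held Cd3 carried 38.0% of the Ccl5 UMIs, 63.7% in B6→B6 and 29.9% in HLA→B6 mice. By mouse they carried 100, 87.1, 32.1, 77.4 and 0% in B6→B6 and 49.5, 16.6 and 0% in HLA→B6 mice. Cells with Cd3 were 71.8% of the myeloid cells of B6→B6 mouse 4. Without them the levels were 569.9 ± 519.9 and 3911 ± 2775 CPM (exact permutation p = 0.0357, log2 fold change 2.69, SE 0.75, edgeR adjusted p = 0.118, with 0.807% of 3469 genes called and 4.84% without overlap and HLA→B6 above). T cell markers summed to 602 to 6877 CPM in the myeloid cells of B6→B6 and 50.4 to 1370.5 CPM in those of HLA→B6 mice. Without the cells with shared barcodes, Ccl5 was 0, 173, 1319.6, 859 and 1217 CPM in B6→B6 and 2545, 3737 and 6654 CPM in HLA→B6 mice, with no overlap (log2 fold change 2.48, edgeR adjusted p = 0.548). In HLA→B6 mouse 1, cells with Ccr7 held 56.5% and cells with Cd3 held 49.5% of the Ccl5 UMIs, so the sets overlapped. Cells with Ccr7 and without Cd3 were not examined alone. The split by Ccr7 and by Cd3 was chosen after the data were seen.

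**Figure D5:**
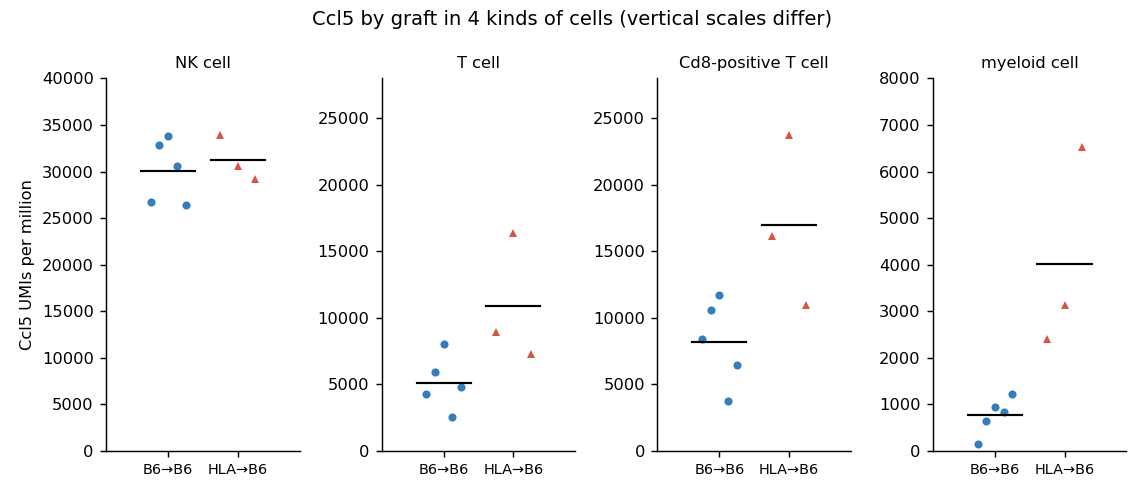
Ccl5 (CPM, linear axes from 0 with different scales) in NK cells, T cells, Cd8-positive T cells and cells labelled myeloid cell, 1 point per mouse (blue circles B6→B6, red triangles HLA→B6) with black lines at the group means. NK cells have the highest level of Ccl5 and the groups lie in 1 range there. T cells overlap by 1 mouse, and in myeloid cells all 3 HLA→B6 mice lie above the 5 controls.

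In AMs, the resident phagocytes of the airspace, Ccl3 was 46.0 ± 17.3 CPM in B6→B6 and 65.7 ± 23.2 CPM in HLA→B6 mice (log2 fold change 0.77, SE 0.34, edgeR adjusted p = 0.166, against 12.3% of 5798 genes called). Ccl4 was 20.5 ± 16.8 and 29.3 ± 28.5 CPM there. Ccl5 in AMs was 129, 77.2, 102, 4.95 and 0 CPM in B6→B6 and 183, 251 and 36.4 CPM in HLA→B6 mice (edgeR adjusted p = 0.207). It passed the threshold without the cells that share a barcode (3.37, edgeR adjusted p = 0.0325) and with the linked libraries as a block (edgeR adjusted p = 0.00675). Monocytes had 107 ± 54.8 and 97.7 ± 28.8 CPM of Ccl3 (log2 fold change -0.33, SE 0.33, exact permutation p = 0.929, with 0.023% of 4352 genes called by edgeR) and 50.7 ± 42.5 and 70.7 ± 43.6 CPM of Ccl4. Ccl5 in monocytes was at 0 CPM in all 5 B6→B6 mice, which allows up to 5.59 to 27.6 CPM, and at 51.3, 206 and 0 CPM in HLA→B6 mice. Scrublet marked 26.3% of the 19 monocytes with Ccl5 as doublets, against 2.74% of all monocytes. Leukocytes, with 5 and 2 mice, had 282 ± 333 and 132 ± 94.0 CPM of Ccl3 and 648 ± 466 and 481 ± 201 CPM of Ccl4. In structural cells Ccl5 was 35.6, 173, 116, 244 and 0 CPM in B6→B6 and 544, 531 and 9.45 CPM in HLA→B6 mice (log2 fold change 1.43, SE 0.80, edgeR adjusted p = 0.720, with 0.604% of 8109 genes called). Within them, the deposited cluster named T cells held Ccl5 in 42.3 ± 17.4% of cells at 1000 UMIs (3 mice) and the MHC II+ endothelial cells in 0.768% (7 mice). Doublets were 16.0% of the structural cells with Ccl5 and 1.31% of all structural cells, and T cell markers summed to 2.72 to 455 CPM in B6→B6 and 11.8 to 275 CPM in HLA→B6 mice. The part of such cells in the Ccl5 level was not tested. All 255 Ccl5 UMIs of the B cells lay in 8 cells, and edgeR called 0.117% of the 6001 genes tested there and neither Ccl5 nor Ccr1. Of these 8 cells 2 were marked as doublets.

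Ccr1, the receptor, was not called between the groups in any cell type, except in monocytes when no filter on low counts was set (1.30, edgeR adjusted p = 0.00347). In leukocytes, the cells with neutrophil markers and the highest level, Ccr1 was 749, 479, 584, 604 and 702 CPM in B6→B6 and 479 and 396 CPM in the 2 HLA→B6 mice with 10 cells or more, while the third HLA→B6 mouse had 557 CPM in 5 cells and was left out. The means were 624 ± 106 and 437 ± 58.3 CPM, the groups met at 479 CPM and overlapped once the third mouse was counted, and 5 against 2 mice cannot give an exact permutation p below 0.0952. Ccr1's log2 fold change there was -0.42 (SE 0.27), which edgeR did not call, as it called 0% of the 913 genes tested. In mast cells Ccr1 ranged from 48.5 to 656 CPM in B6→B6 and from 211 to 594 CPM in HLA→B6 mice (exact permutation p = 0.857). AMs had 82.4, 64.7, 75.3, 58.5 and 50.3 CPM in B6→B6 and 74.6, 59.6 and 64.3 CPM in HLA→B6 mice, with equal means of 66.2 CPM (exact permutation p = 1). The edgeR interval of their log2 fold change was -0.18 to 0.67. Monocytes had 18.4, 49.97, 52.2, 10.9 and 29.2 CPM in B6→B6 and 172, 28.3 and 16.9 CPM in HLA→B6 mice. Only HLA→B6 mouse 1, with 446 of the 521 Ccr1 UMIs of all monocytes, lay above the controls. The log2 fold change of 1.26 (SE 0.58, edgeR adjusted p = 0.981) turned to -0.60 without that mouse. In myeloid cells Ccr1 was 56.7 ± 38.8 and 25.5 ± 15.2 CPM. In T and NK cells it stood at 1.01 and 1.39 CPM in B6→B6 and 1.48 and 2.99 CPM in HLA→B6 mice, and plasma cells had none of the 1914 Ccr1 UMIs.

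Summed over all cells of a graft, no member passed the test. Ccl3 was 123 ± 42.5 CPM in B6→B6 and 84.3 ± 39.3 CPM in HLA→B6 grafts (log2 fold change -0.40, SE 0.33). Ccl4 was 181 ± 77.8 and 152 ± 78.6 CPM (-0.12, SE 0.37), Ccl5 2812 ± 803 and 3585 ± 1451 CPM (0.49, SE 0.28) and Ccr1 36.0 ± 13.3 and 40.4 ± 29.9 CPM (0.30, SE 0.42). edgeR and DESeq2 called 0 of the 4, and 0 had an unadjusted p under 0.05 by edgeR, where 0% of 11584 genes were called and 7.04% were under 0.05 unadjusted. In these sums, fewer cells of a type and less RNA per cell cannot be told apart. The ranges of the groups overlapped for all 4 genes.

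Genes of the same pathways were followed by list, as numbers passing in each direction beside the median of all genes tested. Of 16 other CC chemokines in the table, 0 had enough counts in T cells to be tested, and of 12 other CC chemokine receptors and decoy receptors 4 had. None of these 4 passed by edgeR or by DESeq2, 3 were lower at an unadjusted p under 0.05 by edgeR (7.45% of all 7164 genes had such a p), and their median log2 fold change was -1.06 beside -0.02 over all 7164 genes. Ccr7, a marker of naive and central memory T cells, was among them at -0.84 (edgeR adjusted p = 0.351). Of 13 genes of cytotoxic lymphocytes, 13 were tested in T cells and none passed by edgeR, with 7 higher and 2 lower at an unadjusted p under 0.05 and a median of 0.82. DESeq2 called 2 of the 13, Nkg7 as higher and Klrg1 as lower. Their summed level was 1758 ± 472 CPM in B6→B6 and 3534 ± 1035 CPM in HLA→B6 mice (exact permutation p = 0.0357). The granule protein gene Nkg7 stood at 1.25 (edgeR adjusted p = 0.110), Ifng, which encodes interferon gamma, at 1.40 (0.225), the granzyme gene Gzmk at 1.59 (0.491), Gzma at -1.78 (0.653) and the inhibitory receptor gene Klrg1 at -2.80 (0.298). In Cd8-positive T cells 11 of the 13 were tested and Ifng rose by 2.12 (SE 0.39, edgeR adjusted p = 0.0207), the 1 gene of the list to pass by edgeR, while DESeq2 called Ifng and Nkg7. The summed level of the receptors in T cells was 658 ± 151 and 321 ± 56.2 CPM (exact permutation p = 0.0357). Immediate early genes ran the other way from Ccl3 and Ccl4 in T cells, at 2690.3 ± 876 CPM in B6→B6 and 1485 ± 524 CPM in HLA→B6 mice (exact permutation p = 0.0714). Of the 11, 7 were tested in T cells, edgeR and DESeq2 called 0, and 4 were lower at an unadjusted p under 0.05 (median -0.86). Of 12 inflammatory response genes 7 were tested, edgeR and DESeq2 called 0, and 2 were lower at an unadjusted p under 0.05 (median -0.27). The part of these lists in the T cell results was not tested.

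In AMs, 4 other chemokines and 2 receptors were tested, and the decoy receptor gene Ccrl2 rose by 1.499 (edgeR adjusted p = 0.0360). That is 1 of 6 genes, where 12.3% of the 5798 genes tested in AMs were called. In monocytes, immediate early genes summed to 8461 ± 1718 CPM in B6→B6 and 3977 ± 625 CPM in HLA→B6 mice (exact permutation p = 0.0357), and Fos fell by 1.53 on the log2 scale (edgeR adjusted p = 0.00715). DESeq2 called 4 of the 10 immediate early genes tested in monocytes as lower (Dusp1, Fos, Fosb and Junb). Over whole grafts, 11 other chemokines, 7 receptors and 13 cytotoxic genes were tested and edgeR called 0 of them, with 1, 1 and 3 genes at an unadjusted p under 0.05 and 0 called by DESeq2. Of the 11 immediate early genes tested over whole grafts, DESeq2 called 4 as lower in HLA→B6 (Egr1, Fos, Fosb and Junb), and edgeR called 0.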

How the data were processed

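Single cells of 8 lung grafts (5 B6→B6, 3 HLA→B6) were measured by 10x Genomics 3′-end sequencing. The authors deposited whole UMI counts per gene and cell, made with Cell Ranger on mm10, and state that shallow barcodes and rarely found genes were removed and that free RNA was removed with SoupX. Whether the deposited counts precede or follow SoupX is not stated. Cell types are the deposited labels from Seurat clustering and clustifyr, whose versions are not given in the sources used here. All 20778 cells were kept, with 0 columns left unused, and each cell took its mouse from the deposited table of cells. Scrublet marked 258 cells (1.24%) as doublets, and these were left out only as an alternative.

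UMIs were summed per mouse and cell type with at least 10 cells (mast cells 5) and tested with edgeR 4.0.16 (TMM, filterByExpr with a minimum count of 10, quasi-likelihood F test, Benjamini-Hochberg over all genes of the type, threshold 0.05) in R 4.3.3, with DESeq2 1.42.0 as an alternative. The test was checked on simulated counts. CPM are UMIs of a gene per 1000000 UMIs of the type. Exact permutation tests were two-sided, over mice. Levels between types and per-cell shares were not tested. Log2 differences within a graft used CPM + 1, which understates changes of low genes. Cells were thinned to 1000 UMIs for shares of cells, as the expected value, with scanpy 1.11.5, pandas 2.3.3, scipy 1.17.1 and numpy 2.4.6 in Python 3.11.15. Named genes are the 4 members, genes of 5 lists (other CC chemokines, receptors, cytotoxic, inflammatory and immediate early genes) that passed or that mark the list, and the genes with the most similar levels. Members, lists and tests were chosen with earlier results of these data known. Alternatives were the normalization, the count filter, leaving out each mouse, the replicate number as a block, shared barcodes, linked libraries, shallow cells, doublets and numbers of cells. A sequence withheld from this work is not reported here.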

Additional observations from a re-analysis of the deposited data

Results flagged for a closer look

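Ccl5 in B cells of B6→B6 mouse 4 was 365.7 CPM, far from the 0 CPM of the other 4 B6→B6 mice. It was the 1 sample far from its group among 28 pairs of member and cell type examined, all of B6→B6 mice. Chance marks about 1 in 20 such groups. The HLA→B6 group has too few mice for this rule and was not examined. All Ccl5 UMIs of B cells lay in 8 cells.

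The change between the groups differed between T cells and NK cells of the same grafts for Ccl4, by 2.93 on the log2(CPM + 1) scale (exact permutation p = 0.0357, the smallest that 5 against 3 mice can give). For Ccl5 it differed by 1.04 (exact permutation p = 0.0357). Leaving out each mouse in turn gave 2.17 to 3.62 for Ccl4 and 0.68 to 1.24 for Ccl5, with the smallest p that the remaining mice allow in each case (exact permutation p = 0.0571 or 0.0952). This comparison was chosen after the data were seen.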

How the results depend on the processing

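No member passed edgeR's threshold in any type, against 3 pairs of member and type by DESeq2, 6 without the count filter (Ccl3 and Ccl4 in T cells, Ccl3 in NK cells, Ccl5 in myeloid cells and monocytes, Ccr1 in monocytes), 3 with linked libraries as a block, 1 without cells of shared barcodes (Ccl5 in AMs), 2 with equal cells per mouse (mast cells, 2 against 1 mice) and, added after the data were seen, 2 each in T cell cluster 1 and in Cd8-positive T cells. Leaving out 1 mouse gave 0 to 2 pairs: without B6→B6 mouse 4 Ccl5 in myeloid cells (edgeR adjusted p = 0.0327), without HLA→B6 mouse 3 Ccl4 in T cells (0.0281) and Ccl5 in monocytes. Whole-graft sums gave 0 under every alternative. With linked libraries as a block, Ccl3 and Ccl4 in T cells passed at 3.50 and 2.83 (edgeR adjusted p = 0.00657 and 0.00341). Ccl5 in AMs also passed there (edgeR adjusted p = 0.00675). The causes were not tested. Apart from T cell cluster 1 and Cd8-positive T cells, the share of all genes called under these alternatives is not given here. Their counts and adjusted p-values, also those of the replicate block below, thus have no background to be set against.

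With the replicate number as a block, over mice 1 to 3, 3 pairs passed: Ccl4 in mast cells, and Ccl5 in myeloid cells and leukocytes (edgeR adjusted p = 0.0154, 0.00111 and 0.0360), and Ccl3 and Ccl4 in Cd8-positive T cells stayed past the threshold (adjusted p = 0.0342 for both). Same-numbered mice had deviations correlated at 0.135, 0.415 and 0.0609 over 11991 genes, and differently numbered mice at -0.346 to 0.292. B6→B6 mouse 3 correlated best with HLA→B6 mouse 1. With so few mice these values cannot decide whether the numbers pair the mice. In the fit with the replicate block, Ccl3 in monocytes reversed to 0.032, as it did without B6→B6 mouse 4 (range leaving out 1 mouse -0.57 to 0.031). Ccr1 in monocytes reversed to -0.60 without HLA→B6 mouse 1 (range -0.60 to 1.61).

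Cd8-positive against Cd4-positive Ccl3 ranged from 1.93 to 2.66 without 1 mouse (exact permutation p = 0.0625 in 6 fits). Ccl3 by Ccl4 in T cells was 3.74 in cells of at least 1000 UMIs and 4.32 to 5.31 without 1 mouse (exact permutation p = 0.09375 and 0.0625). Shares of cells moved with depth: Ccl5 in NK cells 99.3% at 2000 UMIs, Ccl4 in NK cells 25.0% at 500, Ccl3 in NK cells 13.3% at 500 and 28.0% without thinning, Ccr1 in leukocytes 25.3% at 500 and 17.3% at 2000, and Ccr1 in AMs 3.05%, 11.9% and 15.9% at 500, 2000 and without thinning. Of the values recomputed, 454 kept direction and side, 29 weakened, 22 strengthened, 19 moved and 3 reversed. Depth limits the low genes: Ccl3 in control T cells rests on 0 to 23 UMIs per mouse.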

Other observations

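Over the 69 sums of cells per mouse and type, the levels most like each member's were found among 8089 genes, as Pearson's r of log2 levels, a description in which sums of 1 library share their depth. Ccl3 and Ccl4 were each other's nearest gene (r = 0.85). After Ccl4, Ccl3 was nearest to Sema4a (0.77), Nfil3 (0.76) and Fcer1g (0.75), the last a signalling chain of Fc receptors on mast cells, basophils and NK cells. After Ccl3, Ccl4 was nearest to Il18rap (0.81), a subunit of the interleukin 18 receptor, and to Slc9a3r1 (0.77) and Hcst (0.76). Ccl5 stood with genes of cytotoxic lymphocytes, Klrd1 and Nkg7 (0.86 each), Klrk1, Il2rb and Ctsw (0.84 each). Ccr1 stood with Taldo1 (0.89), Csf2rb and Nfam1 (0.84 each) and Ncf1 (0.83), a subunit of the phagocyte NADPH oxidase. Among the members, Ccl5 was unlike Ccl3 (0.19) and Ccl4 (0.33), and its r with Ccr1 was -0.44.

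Immediate early genes passed in single cell types of HLA→B6 grafts besides the monocytes given above. In AMs Fosb fell by 1.76 on the log2 scale (edgeR adjusted p = 0.0178), 1 of the 7 genes of the list tested there, where 12.3% of 5798 genes were called, and in structural cells Egr1 fell by 3.03 (edgeR adjusted p = 0.0378). Ccl6, a chemokine of macrophages and dendritic cells, fell by 1.25 in myeloid cells without Cd3 (edgeR adjusted p = 0.0499), a set of cells chosen after the data were seen.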
